A study of Rattus norvegicus with 11 samples.

Results

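This account covers rat neurons made to express H1.4 CFT, a mutant linker histone, set against neurons expressing green fluorescent protein (GFP) as the control. It rests on 7 of the 11 libraries of the series: 4 of H1.4 CFT, called CFT 1 to CFT 4 after their labels, and 3 of GFP, called GFP 2 to GFP 4. All were primary hippocampal neurons of CD (Sprague Dawley) IGS rats at day 7 in vitro, and polyadenylated RNA was sequenced. CFT stands for a C-terminal tail that a frameshift has altered, and the protein was expressed from outside beside whatever linker histones the cells make themselves. The other 4 libraries, of neurons that expressed wild-type H1.4 (WT H1.4), entered the same fit and are given beside some genes. The species and sequence of the constructs, their promoter, the means of delivery, the age of the animals and whether libraries came from separate platings are not given in the sources used here. The p-values therefore measure the spread between these libraries, which the labels call biological replicates. Every gene of the deposited tables was a member: 42172 genes, of which 29259 had at least 1 count and 17294 passed the low-count filter and were tested.

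Linker histones sit where DNA enters and leaves the nucleosome, and their long, lysine-rich C-terminal tail binds linker DNA and helps to fold chromatin. Mammals have several subtypes, some made in S phase from genes in the histone clusters, such as H1.2 and H1.4, and others, such as H1.0, that are made outside S phase and build up in cells that have stopped dividing. Frameshift variants in the tail of H1.4 are known from a neurodevelopmental disorder, and neurons are among the cells in which linker histones are studied for that reason.

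Reads assigned to genes ran from 16748377 to 18264770 in the H1.4 CFT libraries and from 12070941 to 16923850 in the GFP libraries (exact two-sided permutation p = 0.0571, adjusted p = 0.0857 over 6 library measures). After thinning each library to 12070941 counts, H1.4 CFT libraries held 22817 ± 85.1 detected genes (SD, n = 4) and GFP libraries 22016 ± 42.1 (n = 3). The mitochondrial genome gave 3.19 ± 0.118% of gene counts for H1.4 CFT and 2.85 ± 0.0888% for GFP. In both measures each H1.4 CFT library lay above each GFP library (exact p = 0.0286 for each, the smallest that the 35 assignments of 7 libraries allow, adjusted p = 0.0571). The libraries did not vary evenly within a group. Between CFT 1 and CFT 2 the variance over genes was 1.81 times that of counting, and between CFT 3 and CFT 4 1.95 times, but 8.81 to 10.1 times across these pairs. In GFP it was 2.16 between GFP 3 and GFP 4 and 4.78 and 6.14 between GFP 2 and each of the others. Each side of that split in H1.4 CFT is 1 pair of libraries with a small spread, so no count of genes differing across it is given. The labels name no batch. The counts over all genes are therefore also given within each number pair, as are the list counts that move there by over 1.5 times.

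With TMM scaling more genes fell than rose in H1.4 CFT neurons, most changes were small, and the large changes were mainly rises of genes with low levels. In all, 5098 of the 17294 genes (29.5%) had an adjusted p under 0.05. H1.4 CFT was higher for 2302 (13.3%) and lower for 2796 (16.2%). The fit had a term for group only, and with a number-pair term 2900 genes were higher and 3380 lower. Adjusted p here and below is from edgeR's quasi-likelihood test with Benjamini-Hochberg adjustment over all genes tested, and a gene is called, or said to rise or fall, only where it is under 0.05. With upper-quartile scaling in place of TMM the split turned, with 2990 higher and 2405 lower, so that 55.4% of calls were rises against 45.2%. The median absolute log2 fold change of called genes was 0.38, and 64.6% of them had one under 0.5. At least 2-fold changes were more often rises (399 genes, 2.31% of those tested) than falls (246 genes, 1.42%), but with only genes of 5 CPM or more in 3 libraries they were more often falls (52 higher, 124 lower). The groups' CPM values, which are counts scaled to each library's TMM-adjusted depth, did not overlap for 6144 genes (35.5%), among them 4665 of the 5098 called.

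The direction of the calls went with the level of the gene. Of 1677 tested genes with a mean under 1 CPM, 11.9% were higher and 2.33% lower. Of 6413 genes with 20 to 100 CPM, 15.5% were higher and 19.5% lower. Of 2498 genes with over 100 CPM, 10.1% were higher and 31.3% lower. The 2-fold rises numbered 196 under 1 CPM, 178 from 1 to 5 CPM, 23 from 5 to 20 CPM, 2 from 20 to 100 CPM and 0 above. The 2-fold falls numbered 38, 94, 67, 43 and 4 in the same classes, more than the rises in each class above 5 CPM. The low-count filter asks for a minimum in as many libraries as the smallest group, GFP, holds. A low gene read only in GFP therefore needed every GFP library to pass. One read only in H1.4 CFT could pass without every H1.4 CFT library. How far the share of rises among low genes goes with this filter or with the deeper H1.4 CFT libraries was not tested.

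**Figure D1:**
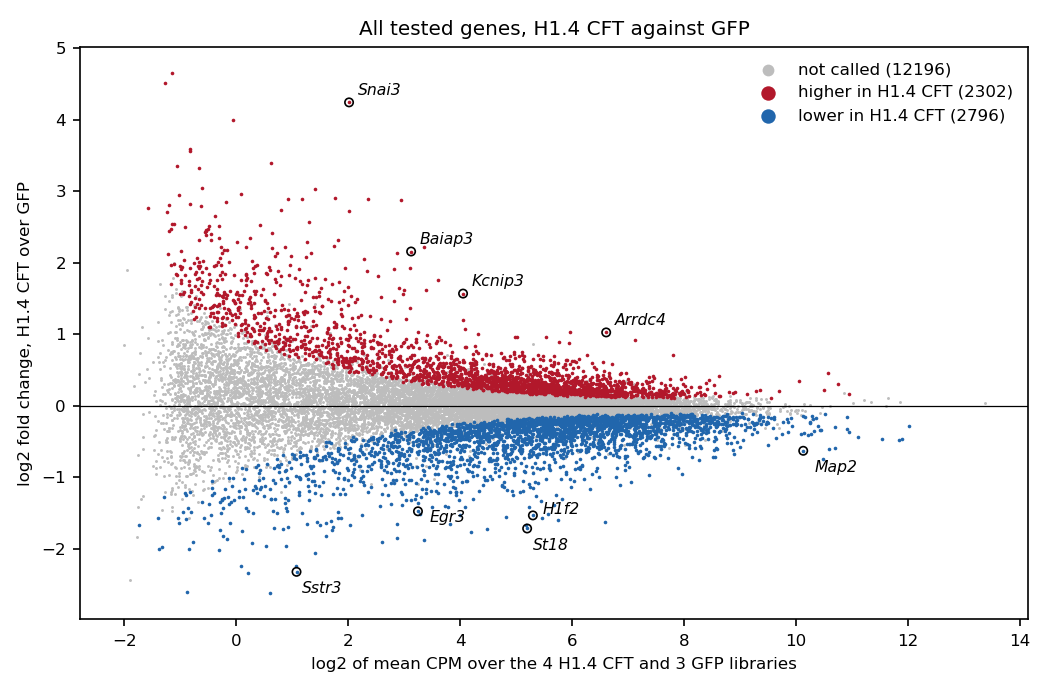
Each point is a tested gene, with the log2 of its mean CPM over the 7 libraries on the x axis and the log2 fold change of H1.4 CFT over GFP on the y axis. Red points are the 2302 genes called higher, blue points the 2796 called lower and grey points those not called. Rises of low genes reach the largest folds, and abundant genes lie more often below 0.

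**Figure D2:**
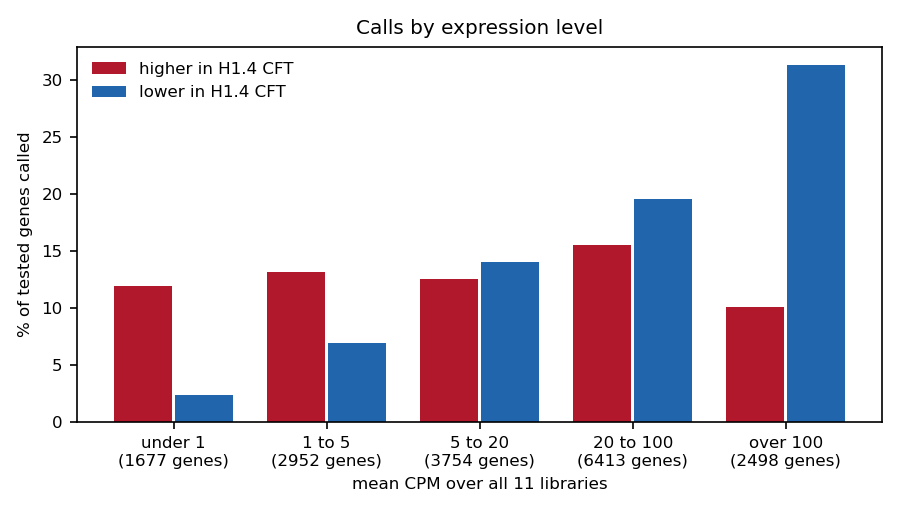
Bars give the percentage of tested genes called higher (red) or lower (blue) in H1.4 CFT, by mean CPM over all 11 libraries. The share called lower grows from 2.33% under 1 CPM to 31.3% over 100 CPM.

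Within CFT 1 and 2 against GFP 2, in a fit with a term for each group in each number pair, 1270 genes were higher and 1970 lower. Within CFT 3 and 4 against GFP 3 and 4 there were 3001 higher and 3738 lower. In the former the GFP library stands alone and its spread is taken from the other pairs. Of the 5098 called genes, 5089 had the same sign in both pairs. The genes called lower had a median log2 fold change of -0.31 in numbers 1 and 2 and -0.45 in numbers 3 and 4, and those called higher had 0.33 and 0.42. A p-value for the difference between the pairs' fold changes would rest on the small spread within pairs, with GFP 2 alone, so none is given.

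The tested linker histone transcripts of the cells fell in polyadenylated RNA. All 3 linker histone genes that passed the filter (H1f2, H1f0 and H1f10) were called lower, against 16.2% of all genes tested. No GFP library overlapped an H1.4 CFT library for any of them, as for 35.5% of all genes tested. H1f2 encodes H1.2, a subtype of the histone cluster, and it stood at 55.4, 65.8 and 67.1 CPM in GFP 2 to 4 and at 23.2, 23.2, 19.3 and 21.1 CPM in CFT 1 to 4. It fell 2.89-fold (log2 fold change -1.53, SE 0.095, adjusted p = 2.40e-08). Transcripts of such cluster genes mostly lack a poly(A) tail, so the H1f2 values cover only its polyadenylated RNA. H1f0 encodes H1.0, the subtype of cells that have left the cell cycle. It stood at 91.4, 98.9 and 99.2 CPM in GFP and at 53.7, 54.6, 53.5 and 53.7 CPM in H1.4 CFT, a spread of under 2 CPM in the mutant group, and fell 1.79-fold (log2 fold change -0.84, SE 0.051, adjusted p = 2.26e-09). H1f10, an outlying subtype also called H1X, was at 59.1, 60.7 and 62.3 CPM in GFP and at 51.2, 52.1, 48.4 and 50.2 CPM in H1.4 CFT (log2 fold change -0.27, SE 0.063, adjusted p = 0.00332), and within numbers 1 and 2 it was not called (adjusted p = 0.0797). In WT H1.4, H1f2 and H1f0 were called lower against GFP too, with log2 fold changes of -0.47 (adjusted p = 0.017) and -0.24 (adjusted p = 0.023). H1f10 was not called there (log2 fold change 0.065). Against WT H1.4 all 3 were lower in H1.4 CFT, with log2 fold changes of -1.06 for H1f2, -0.60 for H1f0 and -0.33 for H1f10. H1f2 overlaps another gene in the RefSeq table, and the strand setting of the counting is not given, so reads of such a pair cannot be told apart.

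H1f4, the rat gene of H1.4, was read 6, 8, 5 and 6 times across CFT 1 to 4, against 2, 0 and 2 times across GFP 2 to 4, too few to be tested. Summed by group, and without TMM scaling, this was 0.358 CPM in H1.4 CFT (95% exact Poisson interval 0.232 to 0.529) and 0.0930 CPM in GFP (0.0254 to 0.238), for counting error only. For GFP 3, where the count was 0, a limit of 3 counts corresponds to 0.249 CPM. Transcripts of replication-dependent histone genes mostly lack a poly(A) tail, and the construct's own reads may not have been assigned to this gene, so the counts do not check the labels. H1f1, H1f5, H1f6, H1f7 and H1f8 were below the filter too, with 0, 20, 38, 0 and 0 counts summed over the 4 H1.4 CFT libraries and 1, 9, 14, 0 and 2 over the 3 GFP libraries, so H1f5 and H1f6 did not share the lower values of the tested genes.

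H1f2 and H1f0, of different classes, fell, while H1f4 was not tested and its few counts were higher in H1.4 CFT. The promoter of H1f10, which also fell, is left out, and those of H1f2, H1f4 and H1f0 are shown. Each is the 250 bases before the RefSeq start on build GRCr8, 5′ to 3′ on the gene's strand. Capitals mark AAACACA, known as the H1 box of H1 genes, and CCAAT, on either strand.
H1f2: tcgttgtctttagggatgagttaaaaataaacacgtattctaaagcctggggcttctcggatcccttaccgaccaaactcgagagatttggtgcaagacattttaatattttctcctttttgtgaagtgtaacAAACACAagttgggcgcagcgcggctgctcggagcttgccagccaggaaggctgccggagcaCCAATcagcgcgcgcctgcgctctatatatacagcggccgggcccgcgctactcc
H1f4: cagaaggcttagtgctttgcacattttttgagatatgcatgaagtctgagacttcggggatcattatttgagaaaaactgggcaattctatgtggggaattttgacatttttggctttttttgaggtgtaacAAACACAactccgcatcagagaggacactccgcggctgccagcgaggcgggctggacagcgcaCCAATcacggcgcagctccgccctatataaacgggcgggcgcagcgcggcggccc
H1f0: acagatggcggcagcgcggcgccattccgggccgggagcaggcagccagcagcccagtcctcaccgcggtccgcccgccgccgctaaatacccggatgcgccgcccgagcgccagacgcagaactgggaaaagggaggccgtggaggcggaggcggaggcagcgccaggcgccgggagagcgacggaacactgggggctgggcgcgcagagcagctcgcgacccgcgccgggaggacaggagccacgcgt
The H1f2 window lies at chr17:41820454-41820703 (minus strand), that of H1f4 at chr17:41914175-41914424 (plus strand) and that of H1f0 at chr7:112473030-112473279 (plus strand). H1f2 and H1f4 carry AAACACA 117 and 118 bases before the start and CCAAT 55 bases before it. Neither motif is in the H1f0 window, and H1f0 sequence outside these 250 bases was not searched. Over all 33469 windows of RefSeq promoters, taken with 50 bases after the start, 6.99% hold AAACACA and 37.5% hold CCAAT on either strand. A match is a description of the letters and was not tested against the change.

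Other chromatin genes moved by smaller amounts and in both directions. Of 10 tested variant histone genes, 3 were called higher and 1 lower, 40% against 29.5% of all genes tested. The number higher was 1 without CFT 3, without CFT 4 or without GFP 2. Macroh2a1, which encodes the large histone variant macroH2A1, was at 163, 167 and 177 CPM in GFP and at 195, 194, 226 and 224 CPM in H1.4 CFT (log2 fold change 0.31, adjusted p = 0.00029). Of 29 polycomb genes, 3 were called higher and 1 lower, with a median of 0.013. That is 13.8% called, below the 29.5% of all genes tested. There the number higher went up to 7 without CFT 2, to 6 with the replicate number as a block, to 9 within numbers 3 and 4 and to 10 with upper-quartile scaling. Cbx6, a chromodomain subunit of polycomb complex 1, rose from 220.2, 218 and 222 CPM in GFP to 279.9, 292, 297 and 291 CPM in H1.4 CFT (log2 fold change 0.40, adjusted p = 7.84e-07). Of 25 genes of DNA methylation and heterochromatin, 4 were called higher and 0 lower, 16% called against 29.5% of all genes tested. The number higher was 7 without GFP 2, 9 with upper-quartile scaling, 2 within numbers 1 and 2 and 12 within numbers 3 and 4. The 4 were Ehmt2 and Ehmt1, which place methyl groups on lysine 9 of histone H3, Kmt5b, an H4 methyltransferase, and Dnmt1, the maintenance DNA methyltransferase. Ehmt2 was at 142, 141 and 153 CPM in GFP and at 185, 189, 207 and 194 CPM in H1.4 CFT (log2 fold change 0.41, adjusted p = 3.59e-05), and the groups did not overlap.

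Chromatin remodellers were called in 17 of 30 members, against 29.5% of all genes tested, and split into 10 higher (6 within numbers 1 and 2, 14 within numbers 3 and 4) and 7 lower. Chd3, an ATPase of the NuRD complex, was at 702, 649 and 697 CPM in GFP and at 539.9, 537, 508 and 489.5 CPM in H1.4 CFT (log2 fold change -0.40, adjusted p = 4.34e-06). Dpf1, a subunit of the neuronal BAF complex, had a log2 fold change of -0.51 (adjusted p = 4.99e-06) and Smarca1, the ISWI ATPase SNF2L, one of -0.60 (adjusted p = 6.21e-06). Chd5 and Dpf3, named here after their values were seen, also fell, by log2 fold changes of -0.40 and -0.22. Chd4, Chd6 and Chd2, related helicases, rose, with log2 fold changes of 0.32, 0.34 and 0.32, of which only Chd2 was named by rule. Chd3 and Dpf1 overlap another gene. Dot1l, the methyltransferase of lysine 79 of histone H3, was among the abundant genes that rose, from 79.7, 79.8 and 82.8 CPM in GFP to 116, 108, 132 and 129.8 CPM in H1.4 CFT (1.5-fold, adjusted p = 1.19e-06). It overlaps another gene too.

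The largest rises were in genes at low levels in GFP neurons, and they include a transcriptional repressor, a motor neuron factor and a xenobiotic enzyme. The 9 given average 2 CPM or more over the 7 libraries, leave out locus-number symbols and have groups that do not overlap. Snai3, a Snail-family zinc finger repressor, stood at 0.363, 0.252 and 0.421 CPM in GFP 2 to 4, at 0.488, 0.434, 0.386 and 0.485 CPM in WT H1.4 and at 4.88, 5.35, 8.97 and 8.04 CPM in CFT 1 to 4. It rose 18.9-fold (log2 fold change 4.24, SE 0.32, adjusted p = 3.77e-08), and CFT 3 and 4 were higher than CFT 1 and 2. Lhx3, a LIM homeodomain factor of motor neurons and the pituitary, stood at 0.727, 0.839 and 1.56 CPM in GFP and at 3.46, 4.78, 7.44 and 5.86 CPM in H1.4 CFT (4.99-fold, adjusted p = 1.75e-05). Cyp1a1, the cytochrome P450 that the aryl hydrocarbon receptor induces, stood at 0.363, 0.672 and 0.421 CPM in GFP and at 2.27, 2.36, 5.62 and 3.99 CPM in H1.4 CFT (7.4-fold, adjusted p = 3.68e-05).

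Further large rises were in genes of membranes, cytoskeleton and cilia. Slc17a9, the vesicular nucleotide transporter that loads ATP, rose 8.16-fold and Rapsn, which clusters acetylcholine receptors at the neuromuscular junction, rose 4.87-fold. Misp, an actin-binding protein of the spindle, rose 7.41-fold, but its GFP libraries varied widely (1.74, 0.168 and 1.26 CPM against 7.21, 7.66, 8.12 and 9.75 CPM, adjusted p = 0.00161). Baiap3, a Munc13-related protein of dense-core vesicle release, went from 2.91, 3.27 and 2.65 CPM to 11.3, 11.5, 14.9 and 14.5 CPM (4.46-fold, adjusted p = 3.07e-08). Cfap44, of the cilium axoneme, rose 7.46-fold and Eqtn, an acrosome membrane protein, 4.64-fold. In WT H1.4 none of these 9 genes was called against GFP. Set against WT H1.4, the mutant group had log2 fold changes from 1.79 for Eqtn to 3.90 for Snai3. These 9 were picked for their high values in the same mutant libraries. The comparison of the H1 groups is therefore a description and not a separate test, and no p-value is given. Slc17a9, Cfap44, Misp, Eqtn and Baiap3 overlap another gene.

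**Figure D3:**
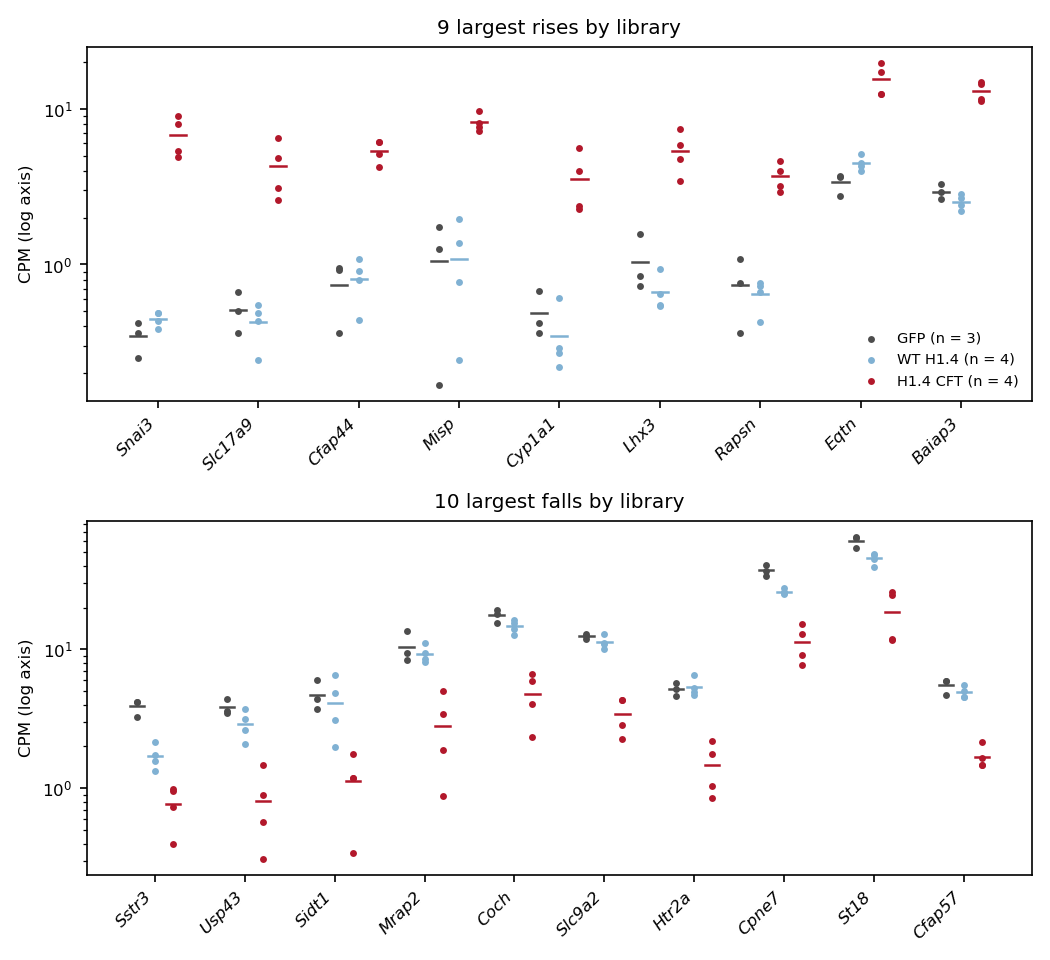
CPM on a log axis in each GFP (grey), WT H1.4 (blue) and H1.4 CFT (red) library for the 9 rises and 10 falls given in the text, where short lines are group means. The red points lie apart from the grey points in all 19 genes, as the naming rule required.

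The largest falls were in receptors, transporters and a neuronal zinc finger factor. Sstr3, the somatostatin receptor of neuronal cilia, stood at 3.27, 4.2 and 4.21 CPM in GFP and at 0.738, 0.957, 0.397 and 0.985 CPM in H1.4 CFT. It fell 4.998-fold (log2 fold change -2.32, SE 0.28, adjusted p = 5.54e-06). It was lower in WT H1.4 too, at 1.57, 1.74, 2.15 and 1.33 CPM (log2 fold change -1.19 against GFP, adjusted p = 0.0248). Htr2a, the serotonin 2A receptor, went from 4.65, 5.71 and 5.17 CPM to 1.76, 2.2, 0.852 and 1.04 CPM (3.54-fold, adjusted p = 1.99e-05). Slc9a2, a sodium-proton exchanger that overlaps another gene, fell 3.6-fold and Cpne7, a calcium-dependent membrane-binding copine, 3.3-fold. Mrap2, an accessory protein of melanocortin receptors, fell 3.74-fold, with the H1.4 CFT libraries spread from 0.881 to 5.05 CPM.

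St18 was the most abundant of these 10. It encodes a MYT-family zinc finger factor of neurons and stood at 53.5, 63.8 and 64.9 CPM in GFP and at 25.99, 24.5, 11.8 and 11.9 CPM in H1.4 CFT (3.28-fold, adjusted p = 0.0021). The fall was larger in numbers 3 and 4 (log2 fold change -2.44) than in numbers 1 and 2 (-1.08), where GFP 2 stands alone. Usp43, Sidt1, Coch and Cfap57, the last an axoneme protein, fell 4.73, 4.17, 3.68 and 3.24-fold.

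Among genes called with a change past 0.5 on the log2 scale, the 5 most abundant to fall were Blcap, Nnat, Hmgcs1, Map2 and Copg2, and the 5 most abundant to rise were Ube2b, Txnip, Dot1l, Arrdc4 and Srrm3. Nnat, an imprinted gene of the neuronal endoplasmic reticulum, stood at 1842, 2041 and 1861 CPM in GFP and at 1382, 1393, 1125 and 1129 CPM in H1.4 CFT (1.52-fold, adjusted p = 5.53e-05). Blcap, inside which Nnat lies, had nearly the same fold (1.5-fold), and reads of the 2 genes may be shared. Copg2, a COPI coat subunit, fell 1.46-fold (adjusted p = 0.0153, but 0.0572 in a fit of the 7 libraries alone). Ube2b, a ubiquitin-conjugating enzyme of DNA repair that overlaps another gene, rose 1.64-fold and Srrm3, a splicing factor of neuronal microexons, 1.52-fold, from 75.9, 71.6 and 68.7 CPM in GFP to 108, 102, 111 and 118 CPM in H1.4 CFT (adjusted p = 3.89e-07).

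Most genes of neuronal structure were called lower. Of 30 tested genes of immature neurons and growth cones, 22 were called lower and 2 higher (4 with the replicate number as a block). Their median log2 fold change was -0.29, against 0.011 over all genes. Among all genes tested 16.2% were lower and 13.3% higher, shares that stand beside every list count below. Calls also went with level: over 100 CPM, 31.3% of genes were lower and 10.1% higher. List counts were not matched for level. Dcx, the microtubule-binding doublecortin of young neurons, stood at 1374, 1244 and 1313 CPM in GFP and at 1069, 1033, 956 and 950.2 CPM in H1.4 CFT (log2 fold change -0.39, adjusted p = 9.15e-06). Tuba1a, the main alpha-tubulin of neurons, was at 4496, 4519.6 and 4471 CPM in GFP and at 3489.9, 3533, 3019 and 2945 CPM in H1.4 CFT (log2 fold change -0.47, adjusted p = 4.50e-06). Dpysl3, a collapsin response mediator, and Stmn1, a tubulin-sequestering stathmin, had log2 fold changes of -0.43 and -0.41. For each of these the lowest GFP library was above the highest H1.4 CFT library. Sox11, a factor of newborn neurons, and Igfbpl1, named after their values were seen, were the members called higher (log2 fold changes 0.22 and 0.62). In bulk RNA, fewer cells of a type and less RNA per cell cannot be told apart.

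Of 26 genes of neurofilaments, microtubules and the mature neuron, 18 were called lower and 1 higher (median -0.36). Map2, of dendritic microtubules, stood at 1452, 1326 and 1419.8 CPM in GFP and at 964, 995, 835 and 823 CPM in H1.4 CFT (1.55-fold, SE 0.062 on the log2 scale, adjusted p = 1.32e-06). Tuba4a fell 2.28-fold, from 26.6, 32.4 and 29.9 CPM to 14.98, 15.9, 11.3 and 9.85 CPM (adjusted p = 6.37e-06), and Map1a and Tubb4a had log2 fold changes of -0.56 and -0.54. The neurofilament genes Nefm and Nefl, named after their values were seen, fell 2.16 and 2.04-fold. Nefm was at 154, 163 and 182 CPM in GFP and at 91.2, 89.7, 63.6 and 64.7 CPM in H1.4 CFT. All 26 members had a larger fall, or a smaller rise, in numbers 3 and 4 than in numbers 1 and 2 (medians -0.47 and -0.31). Stmn1, Dpysl3, Tuba1a, Tuba4a and Map1a overlap another gene.

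Glial marker levels stood beside this as follows. The summed CPM of the astrocyte and radial glia list ran from 4414 to 4559 in H1.4 CFT and from 4370.2 to 4646 in GFP, so the groups overlapped. The oligodendrocyte list summed to between 551 and 641 CPM in H1.4 CFT and between 541 and 669 CPM in GFP. The part of cell composition in the neuronal changes was not tested.

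In each ion channel family more genes were called lower than higher, with a large rise of Kcnip3. Of 13 sodium channel genes, 9 were called lower and 0 higher (median -0.51). Scn3b, an auxiliary beta subunit, was at 185, 161 and 164 CPM in GFP and at 133, 131, 108 and 107 CPM in H1.4 CFT (log2 fold change -0.51, adjusted p = 0.000258). Scn2b, also a beta subunit, and the pore-forming Scn3a had log2 fold changes of -0.58 and -0.52. Of 15 calcium channel genes, 10 were called lower and 1 higher (median -0.19), but 6 were lower without CFT 4 and 4 without GFP 2. Cacna2d3 and Cacna2d1, alpha2delta subunits that carry channels to the surface, had log2 fold changes of -0.66 and -0.46. Cacna1h, a low-threshold T-type pore, had one of -0.39, and the beta subunit gene Cacnb2 one of -0.51 (adjusted p = 5.04e-05).

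Of 41 potassium channel genes, 23 were called lower and 2 higher (median -0.33). Kcnh7, an ERG-type channel, was at 38.4, 37.1 and 39.9 CPM in GFP and at 23.04, 20.7, 17.6 and 18.9 CPM in H1.4 CFT (1.92-fold, adjusted p = 3.84e-07). Kcnj12, an inward rectifier, fell 2.98-fold (adjusted p = 5.02e-06). Kcnip3, which encodes the calcium sensor KChIP3, also known as the repressor DREAM, went the other way. It stood at 7.27, 8.56 and 7.63 CPM in GFP, at 8.78, 9.48, 9.81 and 9.16 CPM in WT H1.4 and at 21.2, 24.3, 22.7 and 24.2 CPM in H1.4 CFT. It rose 2.96-fold (log2 fold change 1.57, SE 0.10, adjusted p = 5.55e-09), and all 4 mutant libraries were high to a like degree. Its paralogue Kcnip2 fell, with a log2 fold change of -0.74 (adjusted p = 1.14e-06). Cacna2d3, Cacna2d1, Cacna1h, Cacnb2 and Kcnh7 overlap another gene.

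More receptor genes of excitatory and inhibitory synapses were called lower than higher. Of 22 AMPA and kainate receptor genes and their auxiliary subunits, 13 were called lower and 2 higher (median -0.22). Gria1, the AMPA subunit GluA1, was at 312, 303 and 308 CPM in GFP and at 256, 255, 224 and 229.7 CPM in H1.4 CFT (log2 fold change -0.35, adjusted p = 2.85e-05). Cacng2, which encodes stargazin, fell 1.6-fold (adjusted p = 1.54e-05), and the kainate partners Neto1 and Neto2 had log2 fold changes of -0.59 and -0.49. Of 13 NMDA and metabotropic glutamate receptor genes, 7 were called lower and 1 higher (median -0.35). Grm3, Grm5 and Grm7, metabotropic receptors, had log2 fold changes of -0.36, -0.35 and -0.45. The obligate NMDA subunit gene Grin1, named after its values were seen, was not called (log2 fold change -0.048, adjusted p = 0.513).

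Of 19 GABA and glycine receptor genes, 10 were called lower and 0 higher (median -0.25). Gabra5, an extrasynaptic GABA-A subunit of the hippocampus, was at 219.8, 233 and 236 CPM in GFP and at 168, 167, 144 and 141 CPM in H1.4 CFT (log2 fold change -0.57, adjusted p = 9.04e-07). Gabbr2, a GABA-B receptor subunit, and Glrb, the glycine receptor beta subunit, had log2 fold changes of -0.61 and -0.44. Gria1, Neto1, Grm3, Grm5, Grm7 and Gabbr2 overlap another gene.

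On the postsynaptic side, 15 of 29 tested members were called lower and 2 higher (median -0.19). Lrrtm2, an adhesion protein that binds neurexins, stood at 47.1, 56.2 and 49.8 CPM in GFP and at 23.9, 25.4, 19.8 and 19.9 CPM in H1.4 CFT. It fell 2.29-fold (log2 fold change -1.20, SE 0.089, adjusted p = 4.09e-08), while in WT H1.4 it was at 48.9, 44.1, 41.96 and 43.1 CPM. The scaffold genes Dlg3 and Homer2 and the adhesion gene Nlgn3 had log2 fold changes of -0.43, -0.29 and -0.26. Nrgn, which encodes neurogranin and was named after its values were seen, fell 2.94-fold with a wide spread (57.7, 41.9 and 35.4 CPM in GFP, 25.5, 19.7, 7.32 and 8.76 CPM in H1.4 CFT, adjusted p = 0.0198). The groups did not overlap, but CFT 3 and 4 were far below CFT 1 and 2. The shank scaffolds Shank2 and Shank3 were not called (log2 fold changes -0.016 and 0.0056).

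On the presynaptic side, 30 of 42 genes of the active zone, vesicles and SNARE complexes were called lower and 1 higher (median -0.37). Syp, the vesicle protein synaptophysin, was at 502, 527 and 545 CPM in GFP and at 376, 404, 333 and 348 CPM in H1.4 CFT (log2 fold change -0.52, adjusted p = 1.19e-06). Syt5, a synaptotagmin, Ppfia2, a liprin of the active zone, and Nrxn3, a neurexin, had log2 fold changes of -0.57, -0.40 and -0.54. The log2 fold change was more negative in numbers 3 and 4 than in numbers 1 and 2 for 38 of the 42. Lrrtm2, Homer2, Syt5, Ppfia2 and Nrxn3 overlap another gene.

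**Figure D4:**
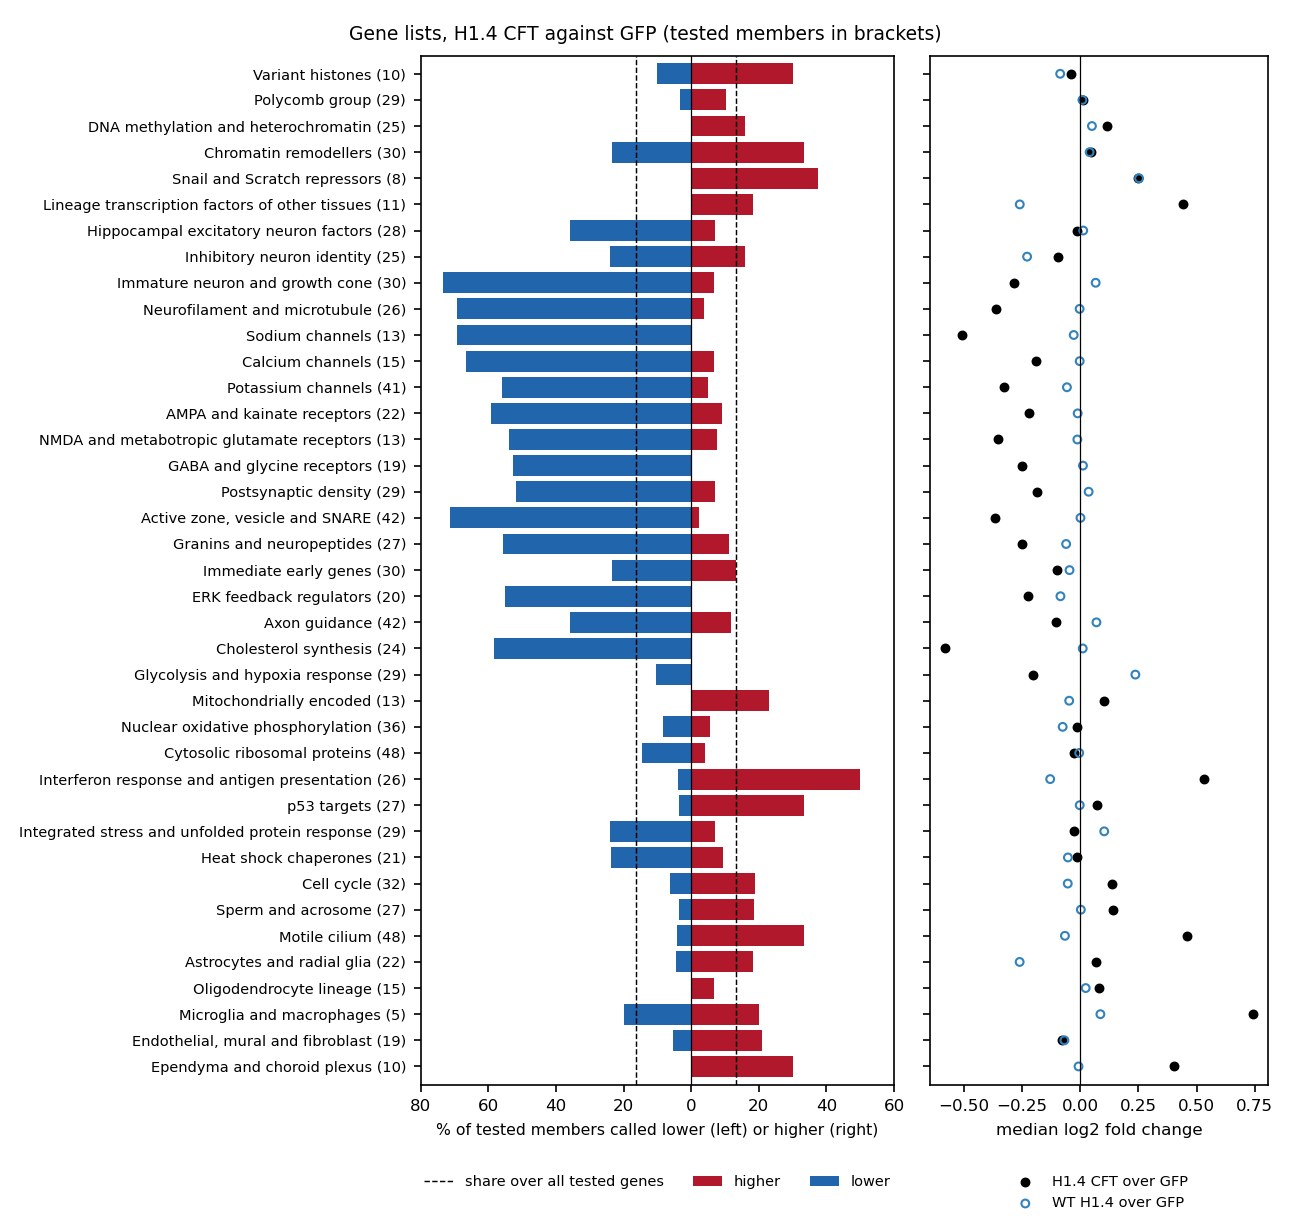
Left, the percentage of tested members of each list called lower (blue, to the left) or higher (red, to the right), where dashed lines mark the share over all 17294 genes (16.2% lower, 13.3% higher). Right, the median log2 fold change of the tested members for H1.4 CFT over GFP (filled) and WT H1.4 over GFP (open), which share the GFP libraries.

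Regulated secretion also had more genes lower than higher. Of 27 granin and neuropeptide genes, 15 were called lower and 3 higher (median -0.25), the latter count being 1 without GFP 2 or GFP 3. Those lower numbered 10 within numbers 1 and 2 and 18 within numbers 3 and 4. Chgb, the granin secretogranin I of dense-core vesicles, was at 117, 129.5 and 126 CPM in GFP and at 79.1, 79.5, 72.97 and 69.3 CPM in H1.4 CFT (1.65-fold, SE 0.053 on the log2 scale, adjusted p = 3.07e-08). Vgf, a neurotrophin-induced granin, stood at 79.5, 95.6 and 90.8 CPM in GFP and at 54.8, 53.5, 50.2 and 47.2 CPM in H1.4 CFT (1.72-fold, adjusted p = 1.57e-07), and in WT H1.4 it was in between, at 61.5, 62.2, 60.9 and 68.9 CPM. Scg5, a chaperone of prohormone convertase, and Cadps2, a vesicle-priming factor that overlaps another gene, fell 1.66 and 1.76-fold. Chga, the related granin, was not called (log2 fold change -0.007).

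Early response genes were called in both directions, and feedback regulators of ERK signalling only lower. Of 30 immediate early genes, 7 were called lower and 4 higher, 36.7% called against 29.5% of all genes tested. Without GFP 4 only 3 were lower, as they were within numbers 1 and 2 against 13 within numbers 3 and 4, and without CFT 3, CFT 4 or GFP 2 there were 2 higher. Egr3, an activity-induced zinc finger factor, was at 14.7, 13.3 and 16.8 CPM in GFP and at 5.33, 6.36, 4.88 and 4.98 CPM in H1.4 CFT (2.78-fold, adjusted p = 1.53e-07), with WT H1.4 at 10.5, 9.48, 11.3 and 9.89 CPM. Ptgs2, which encodes cyclooxygenase 2, fell 4.72-fold from a low level (1.67, 1.93 and 2.16 CPM in GFP, adjusted p = 0.000292). Jun rose from 109.6, 111 and 106 CPM to 147, 150.1, 137 and 129.9 CPM (log2 fold change 0.37, adjusted p = 5.37e-05) and Klf10 had a log2 fold change of 0.31. Fos, Egr1 and Arc, the most used markers of activity, were not called (log2 fold changes -0.013, -0.19 and -0.52).

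Of 20 genes of ERK feedback, 11 were called lower (6 within numbers 1 and 2, 12 within numbers 3 and 4) and 0 higher (median -0.22). Dusp6, the phosphatase that ERK induces and that acts on ERK, stood at 35.9, 47.7 and 44.9 CPM in GFP and at 25.03, 23.9, 21.7 and 22.7 CPM in H1.4 CFT (1.83-fold, adjusted p = 8.31e-07). Etv5 and Etv4, transcription factors downstream of FGF signalling, had log2 fold changes of -0.32 and -0.41, and Dusp2 fell 2.15-fold.

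Of 42 axon guidance genes, 15 were called lower (9 without GFP 2) and 5 higher (median -0.11). Sema5a, a transmembrane semaphorin, rose from 45.3, 40.4 and 39.7 CPM in GFP to 78.3, 83.03, 72.9 and 72.02 CPM in H1.4 CFT (1.83-fold, adjusted p = 3.07e-08). Efnb2, the ephrin B2 ligand, rose with a log2 fold change of 0.44. Efna5, an ephrin A ligand, fell 1.99-fold and Nrp1, the semaphorin co-receptor, had a log2 fold change of -0.35. Sema5a, Efna5, Nrp1 and Klf10 overlap another gene.

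Transcription factors of neuronal identity changed in part. Of 28 factors of hippocampal excitatory neurons, 10 were called lower and 2 higher (4 with the replicate number as a block, 7 within numbers 3 and 4). Neurod6, a bHLH factor of pyramidal neurons, was at 312, 335 and 345 CPM in GFP and at 246, 240.2, 200.4 and 222 CPM in H1.4 CFT (log2 fold change -0.54, adjusted p = 2.44e-06). Fezf2, a factor of deep-layer projection neurons, had a log2 fold change of -0.55 and Etv1 one of -0.39. Mef2d, a MADS-box factor, rose with one of 0.31 (adjusted p = 8.41e-05). Prox1, of dentate granule cells, and Zbtb20, of hippocampal neurons, were not called (log2 fold changes -0.026 and -0.0025).

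Of 25 genes of inhibitory neurons, 6 were called lower and 4 higher, with 3 lower without GFP 4 and 1 higher without GFP 3. Within numbers 1 and 2 there were 3 lower and 0 higher, and within numbers 3 and 4 9 lower and 6 higher. The main fit called 40% of this list, against 29.5% of all genes tested. Calb2, which encodes calretinin, was at 61.2, 67.8 and 60.5 CPM in GFP and at 45.6, 49.3, 34.4 and 36.7 CPM in H1.4 CFT (1.52-fold, adjusted p = 0.00168). Cck, the cholecystokinin precursor, had a log2 fold change of -0.23. The GABA-synthesis genes Gad1 and Gad2 were not called (log2 fold changes -0.06 and -0.31).

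Genes of cholesterol synthesis had negative fold changes throughout, larger in numbers 3 and 4. All 24 tested members had a negative log2 fold change, 14 were called lower and 0 higher, and the median of -0.58 was the lowest of all lists with at least 5 tested genes. The number called depended on single libraries: it was 9 without CFT 3, 9 without GFP 2, 8 without GFP 3 and 9 without GFP 4. It was 16 within numbers 1 and 2 and 23 within numbers 3 and 4. Within numbers 1 and 2 the median was -0.40, and within numbers 3 and 4 it was -0.87, with 24 of 24 members lower in the latter. Fdps, the farnesyl diphosphate synthase, stood at 348, 376 and 359 CPM in GFP and at 253, 259, 187 and 185 CPM in H1.4 CFT (1.64-fold, adjusted p = 0.00157). Its log2 fold changes were -0.45 in numbers 1 and 2, where GFP 2 stands alone, and -0.98 in numbers 3 and 4. Hmgcs1, the HMG-CoA synthase and one of the most abundant genes to fall, was at 2006, 1864 and 1733 CPM in GFP and at 1384, 1356, 858 and 839.7 CPM in H1.4 CFT (1.68-fold, adjusted p = 0.0194). It missed the threshold without GFP 2 (adjusted p = 0.0625), without GFP 3 (0.0527) and in a fit of the 7 libraries alone (0.0646). Acat2, Nsdhl and Cyp51, further enzymes of the pathway, fell 1.68, 1.64 and 1.54-fold. Srebf2, the transcription factor of the pathway, was not called (log2 fold change -0.0082). Fdps, Hmgcs1 and Acat2 overlap another gene.

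For glycolysis and the hypoxia response, 3 of 29 tested members were called lower, against 16.2% of all genes tested, and 0 higher (median -0.20). That count depended heavily on the fit. It was 1 without GFP 2 or GFP 3, 5 without CFT 1, 7 with the replicate number as a block, 10 with a number-pair term, 11 within numbers 1 and 2 and 17 within numbers 3 and 4. Tpi1, triose phosphate isomerase, was at 429, 436 and 367 CPM in GFP and at 352, 347, 248 and 238 CPM in H1.4 CFT (log2 fold change -0.47, adjusted p = 0.0402), and its CFT 3 and 4 lay far below CFT 1 and 2. The adjusted p rose to 0.0805 without CFT 3, 0.0654 without CFT 4, 0.110 without GFP 2 and 0.116 without GFP 3. It overlaps another gene. Slc16a1, a lactate and pyruvate transporter, had a log2 fold change of -0.31 (adjusted p = 0.00153). Gapdh and Pkm were not called (log2 fold changes -0.18 and -0.12). Against WT H1.4, where the list's median was -0.43, 12 of the 29 were lower in H1.4 CFT, against 19.2% of all genes tested.

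A pair of glucose-responsive arrestin genes rose among abundant transcripts. Txnip, which binds thioredoxin and lowers glucose uptake, stood at 100.4, 102 and 74.2 CPM in GFP, at 99.5, 121, 103 and 106 CPM in WT H1.4 and at 174, 175, 173 and 173 CPM in H1.4 CFT. The H1.4 CFT values spanned under 2 CPM, and the gene rose 1.89-fold (log2 fold change 0.92, SE 0.098, adjusted p = 4.00e-05). Its paralogue Arrdc4 went from 65.2, 65.98 and 52.9 CPM to 123, 119, 126 and 129 CPM (2.03-fold, adjusted p = 3.98e-07). Both are known targets of the glucose-sensing factors MondoA and ChREBP, which bind paired E-boxes with CCAAT elements nearby. The Arrdc4 promoter is shown for that reason, as the 250 bases before the RefSeq start at chr1:131793426-131793675 (minus strand, GRCr8), 5′ to 3′ on the gene's strand, with CACGTG and CCAAT on either strand in capitals.
Arrdc4: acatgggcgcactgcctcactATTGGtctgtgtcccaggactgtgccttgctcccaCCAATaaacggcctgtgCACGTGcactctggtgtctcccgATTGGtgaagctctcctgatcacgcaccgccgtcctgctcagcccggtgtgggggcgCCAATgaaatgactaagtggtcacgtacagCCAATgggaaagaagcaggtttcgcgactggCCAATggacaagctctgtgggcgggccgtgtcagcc
It holds CACGTG 177 bases before the start, and CCAAT on the gene's strand 194, 97, 67 and 36 bases before it. Over the 33469 RefSeq windows, with 50 bases after the start, 6.42% hold CACGTG. The match is a description and was not tested against the rise.

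Of 13 tested transcripts of the mitochondrial genome, 3 were called higher (7 within numbers 1 and 2) and 0 lower (median 0.10). ND2, a subunit of complex I, was at 1523, 1472 and 1571 CPM in GFP and at 1818, 1862, 1919 and 1925 CPM in H1.4 CFT (log2 fold change 0.31, adjusted p = 0.000566), and ND1 had a log2 fold change of 0.22 (adjusted p = 0.000675). Shares called were 23.1% for these transcripts, 13.9% for nuclear genes of oxidative phosphorylation and 18.8% for cytosolic ribosomal protein genes. All are below the 29.5% of all genes tested. Of 36 nuclear genes of oxidative phosphorylation, 2 were higher and 3 lower. Those lower were 5 without GFP 2, 1 without GFP 3, 0 without GFP 4, 0 within numbers 1 and 2 and 7 within numbers 3 and 4, and those higher were 1 without CFT 3, CFT 4, GFP 2 or GFP 4 and 4 within numbers 1 and 2. Of 48 cytosolic ribosomal protein genes, 7 were called lower (2 without GFP 3, 3 without GFP 4, 2 within numbers 1 and 2 and 14 within numbers 3 and 4) and 2 higher, among the latter Rps24 (log2 fold change 0.17, named after its values were seen).

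**Figure D5:**
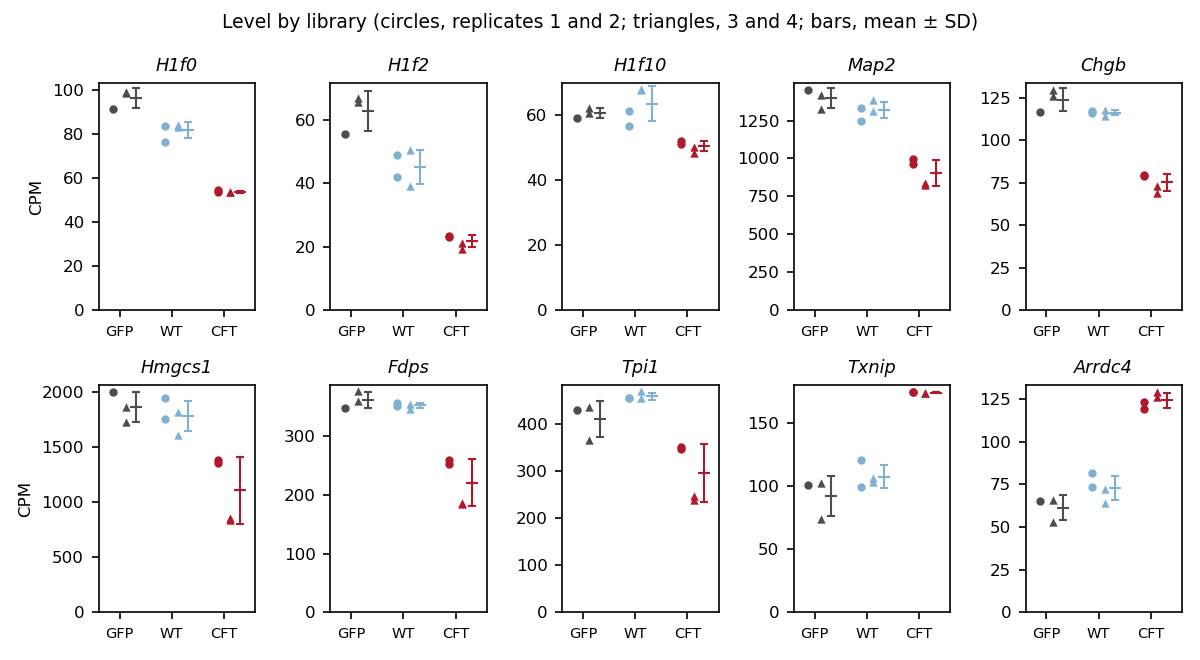
CPM in each GFP, WT H1.4 and H1.4 CFT library for linker histones, neuronal, cholesterol, glycolysis and arrestin genes, with circles for replicates 1 and 2 and triangles for 3 and 4. Bars give the mean ± SD over 3 GFP, 4 WT H1.4 and 4 H1.4 CFT libraries. For Hmgcs1, Fdps and Tpi1 the H1.4 CFT triangles lie far below the circles, and for H1f0 and Txnip they coincide.

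Interferon-response and antigen-presentation genes were called higher more than lower. Of 26 tested members, 13 were called higher and 1 lower (median 0.53), but only 7 were higher without GFP 2, 5 without GFP 4 and 5 within numbers 1 and 2. Isg20, an interferon-induced exonuclease, was at 5.52, 5.71 and 3.43 CPM in GFP and at 11.8, 12.4, 16.5 and 18.2 CPM in H1.4 CFT (3.07-fold, adjusted p = 9.85e-06). Gbp2, a guanylate-binding GTPase, rose 2.09-fold (3.92, 3.86 and 4.09 CPM against 5.9, 6.98, 8.86 and 11.4 CPM, adjusted p = 0.000657). Mx1, an antiviral dynamin, had a log2 fold change of 0.74. Stat2 was the member called lower (log2 fold change -0.35, named after its values were seen), but no member was lower without CFT 1, CFT 3, CFT 4, GFP 2, GFP 3 or GFP 4, or with the replicate number as a block. Isg15 and B2m, the class I light chain, were not called (log2 fold changes 0.18 and 0.15). Microglial markers, which such genes can accompany, were near the detection limit in both groups: Cx3cr1, C1qa and Tyrobp had 2, 4 and 5 counts summed over the H1.4 CFT libraries and 5, 3 and 6 over the GFP libraries.

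Of 27 targets of p53, 9 were called higher (5 within numbers 1 and 2, 11 within numbers 3 and 4) and 1 lower (median 0.071). The main fit called 37% of this list in either direction, against 29.5% of all genes tested. Bbc3, which encodes the pro-apoptotic PUMA, stood at 29.4, 24.8 and 24.2 CPM in GFP and at 41.03, 38.1, 44.8 and 40.2 CPM in H1.4 CFT (1.57-fold, adjusted p = 1.33e-05). Aen, an apoptosis-enhancing nuclease, rose 1.63-fold, from 31.02, 31.4 and 30.1 CPM to 47.2, 42.05, 57.98 and 53.9 CPM (adjusted p = 1.53e-05), and Cdkn1a, the p21 cell cycle inhibitor named after its values were seen, 1.47-fold (adjusted p = 0.00478). Plk2, a kinase of synaptic scaling, was the member called lower (log2 fold change -0.48, adjusted p = 1.28e-05). Mdm2, the p53 ubiquitin ligase, was not called (log2 fold change 0.18, adjusted p = 0.0599).

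Of 29 genes of the integrated stress and unfolded protein response, 7 were called lower and 2 higher, 31% called against 29.5% of all genes tested. Among those lower was Atf4, the central transcription factor of the response. It was at 168, 171 and 159.7 CPM in GFP and 139, 135, 123 and 124 CPM in H1.4 CFT (log2 fold change -0.35, adjusted p = 3.66e-05). Of 21 heat shock chaperone genes, 5 were called lower (3 without GFP 3 or GFP 4, 2 within numbers 1 and 2) and 2 higher. As a share, 33.3% of the chaperone genes were called, near the 29.5% of all genes tested. Hsph1, an HSP110 chaperone, fell 1.53-fold, from 187, 204 and 204 CPM to 135, 141, 124 and 120.3 CPM (adjusted p = 2.03e-07).

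Of 32 cell cycle genes, 6 were called higher, against 13.3% of all genes tested, and 2 lower (median 0.14). Those higher were 3 without GFP 2, 10 with the replicate number as a block and 14 within numbers 3 and 4, and those lower were 0 without GFP 3 and 0 within numbers 1 and 2. The replicative helicase gene Mcm4 had a log2 fold change of 0.38 (adjusted p = 0.000116), its partner Mcm7 one of 0.37 (adjusted p = 0.00127), and Cdk6, a G1 kinase, one of 0.32. The proliferation markers Mki67 and Top2a were not called (log2 fold changes 0.17 and 0.14). Mcm7 and Cdk6 overlap another gene.

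Genes of motile cilia, which hippocampal neurons do not carry, had more rises than falls. Of 48 tested members, 16 were higher (10 without GFP 4, 4 within numbers 1 and 2 and 19 within numbers 3 and 4) and 2 lower (4 with the replicate number as a block), with a median of 0.46. Ccdc40, an axoneme assembly factor, was at 2.98, 3.44 and 3.85 CPM in GFP and at 7.26, 6.7, 8.57 and 9.23 CPM in H1.4 CFT (2.31-fold, adjusted p = 2.05e-05). Dnah2, a dynein heavy chain, and Odad1, of the dynein docking complex, rose 1.79 and 1.92-fold. Foxj1, the master factor of motile cilia and named after its values were seen, rose 1.46-fold, from 7.63, 11.7 and 11.5 CPM to 12.7, 14.5, 16.01 and 16.5 CPM (adjusted p = 0.00555), and the groups did not overlap. The paralogous factors Rfx2, Rfx3 and Rfx4 were not called (log2 fold changes -0.015, -0.12 and 0.048).

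Of 27 tested sperm and acrosome genes, 5 were called higher (3 without GFP 3, 2 within numbers 1 and 2), against 13.3% of all genes tested, and 1 lower (median 0.14). Catsperg, a subunit of the sperm calcium channel, was at 3.56, 2.18 and 2.4 CPM in GFP and at 10.6, 10.1, 9.37 and 10.8 CPM in H1.4 CFT (3.75-fold, adjusted p = 3.74e-07). Acr, which encodes acrosin, rose 2.89-fold and Acrbp, which binds it, 1.89-fold, both from under 4 CPM. Dnah2, Catsperg and Acr overlap another gene.

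Transcription factors of other tissues stayed low. Of 51 listed, 11 passed the filter, and 2 of these, Lhx3 and Pax1, were called higher (1 within numbers 1 and 2 and 4 within numbers 3 and 4) and 0 lower. Pax1, of the sclerotome, was at 0.145, 0.168 and 0.24 CPM in GFP and at 0.738, 0.788, 1.48 and 0.881 CPM in H1.4 CFT (4.98-fold, adjusted p = 0.00158). The 2 called are 18.2% of the 11 tested, against 29.5% called among all genes tested. In all, 12 of the 51 had 0 counts in all 7 libraries. In the Snail and Scratch family, 3 of 8 tested genes were called higher, against 13.3% of all genes tested, and 1 without GFP 2. Beside Snai3 these were Snai1, at 0.581, 0.839 and 1.2 CPM in GFP and 3.46, 1.58, 1.87 and 1.66 CPM in H1.4 CFT (adjusted p = 0.00972, but 0.0574 without GFP 2 and 0.133 within numbers 3 and 4), and Zeb2, with a log2 fold change of 0.13 that missed the threshold without CFT 1, CFT 2, CFT 3, CFT 4, GFP 2 or GFP 3 (adjusted p from 0.0525 to 0.255). In WT H1.4, Snai1 was at 1.84, 1.59, 1.98 and 1.27 CPM and was not called against GFP (adjusted p = 0.3). Zeb2 overlaps another gene.

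Of 22 astrocyte and radial glia genes, 4 were called higher (2 within numbers 1 and 2, 9 within numbers 3 and 4) and 1 lower (median 0.067), while against WT H1.4 13 were higher. In WT H1.4, 9 of the 22 were called lower than in GFP and 0 higher (median -0.26). Among all genes tested, 13.3% were higher and 16.2% lower in H1.4 CFT against GFP, and 16.7% were higher against WT H1.4. Gfap, the astrocyte filament, was not called (537 ± 41.9 CPM in GFP, 557 ± 51.5 CPM in H1.4 CFT, SD, n = 3 and 4), and Glul, glutamine synthetase, was called lower (log2 fold change -0.28, adjusted p = 0.000414, and it overlaps another gene). Of 15 oligodendrocyte lineage genes, 1 was called higher, Cspg4 (log2 fold change 0.42), and with the block 3 were higher and 2 lower. Of 19 endothelial, mural and fibroblast genes, 4 were called higher (1 within numbers 1 and 2) and 1 lower (3 with the block). Tek, the endothelial angiopoietin receptor, rose 4.22-fold at a low level (0.654, 1.01 and 0.842 CPM against 3.01, 3.26, 3.18 and 4.61 CPM, adjusted p = 1.82e-05), while Dcn, a proteoglycan of fibroblasts that overlaps another gene, fell 2.64-fold (17.8, 20.7 and 22.7 CPM against 9.87, 10.02, 7.15 and 4.1 CPM, adjusted p = 0.00244). The defining endothelial genes Cdh5 and Cldn5 were below the filter, with 7 and 23 counts summed over the H1.4 CFT libraries and 3 and 6 over the GFP libraries, and Tie1 was at 0 in all 7. Of 10 ependymal and choroid plexus genes, 3 were called higher, led by Folr1, the folate receptor of the choroid plexus (0.291, 1.01 and 0.842 CPM against 1.87, 2.25, 3.41 and 2.54 CPM, adjusted p = 0.000991). Of 15 listed microglia and macrophage genes 5 passed the filter, with Csf1r called higher (adjusted p = 0.00861, 0.0533 without GFP 2) and P2ry12 lower (adjusted p = 0.0141, 0.0674 without GFP 2). That list summed to between 9.54 and 12.8 CPM in H1.4 CFT and between 12.02 and 12.9 CPM in GFP, and the endothelial list to 274 to 278 CPM and 279 to 296 CPM. Summed over the ependymal list the level was 27.5 to 37.5 CPM in H1.4 CFT and 21.7 to 22.7 CPM in GFP.

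Expression of WT H1.4 changed far fewer genes against the same controls, 163 of 17294 (0.943%), 75 higher and 88 lower. Both comparisons share the GFP libraries, so the values are set side by side only. The 4 genes given here were called in opposite directions and chosen for that pattern, and their values are a description. Gja1, the connexin of astrocytes, was at 101 ± 1.51 CPM in GFP (SD, n = 3), 127 ± 3.15 CPM in H1.4 CFT (n = 4) and 83.5 ± 3.39 CPM in WT H1.4 (n = 4). Mlc1, an astrocyte end-foot protein, was at 150.1 ± 4.28, 178 ± 13.9 and 114 ± 5.12 CPM in the same order, and Naprt, an enzyme of NAD synthesis, at 13.3 ± 0.408, 18.1 ± 0.869 and 9.4 ± 0.616 CPM. Nrep, a protein of regrowing neurons, was at 605 ± 16.02, 530.5 ± 15.6 and 713 ± 9.01 CPM. GFP thus lay between the H1 groups in each of these 4, and Mlc1 overlaps another gene.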

How the data were processed

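Polyadenylated RNA of 11 libraries was measured. Per the submitters' processing notes, the authors used STAR 2.7.2b, HTSeq 0.10.0 and the mRatBN7.2 build. The values the authors deposited are raw counts per gene symbol, without normalization, and annotation release and strand setting are not given in the sources used here. The 5 summary entries of each table (reads in no feature, not aligned and the like) were left out of library sizes and tests. Reads in no feature made up 45.2 to 46.0% of each library, and those not aligned 0.829 to 1.84%.

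Counts were fitted in R 4.3.3 with edgeR 4.0.16, over all 11 libraries with a term for group, TMM scaling and the robust quasi-likelihood test, after filterByExpr by group (minimum count 10, minimum total 15). This left 8 residual degrees of freedom, with a common biological coefficient of variation of 7.02%. The Benjamini-Hochberg adjustment ran over all 17294 tested genes. Log2 fold changes are fitted values, and each SE is the log2 fold change divided by the root of its F statistic. Library measures were compared by exact permutation tests. Lists were described by counts and medians only.

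The members and lists were chosen with earlier results of these data known. The 40 lists held 1108 symbols, 13 of which had no match and 2 of which were matched through a synonym. The rule for named genes took H1f4, the 10 largest rises and falls under the limits in the text, the 5 most abundant called rises and falls past 0.5 on the log2 scale, up to 4 called members of each list by smallest p, the tested linker histones and 5 genes called oppositely in WT H1.4. Not-called genes, and genes said to be named after their values were seen, are outside that rule. A few genes that the rule named are not reported here. Neighbouring and overlapping genes and promoter windows came from RefSeq on GRCr8, which is not the files' build. It held 29477 of the 42172 symbols and 173 of 177 named genes, of which 68 overlap another gene. Promoter windows matched 11325 tested genes (65.5%), too few for a comparison of CpG content or motifs between called and other genes, which is void and not used. AAACACA and CCAAT were searched after the data were seen.

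The labels do not pair the samples, so the main fit had a term for group only, and pairing entered only through alternatives. Deviations from group means of equally numbered libraries correlated at 0.255, 0.124 and 0.163 for numbers 2, 3 and 4 of H1.4 CFT and GFP. Unlike numbers of the same pair (1 and 2, or 3 and 4) correlated as much, at 0.263, 0.181 and 0.123, and libraries across these pairs at -0.118 to -0.265, so the values separate 1 and 2 from 3 and 4 and do not separate numbers within a pair. The alternatives were RLE and upper-quartile scaling, DESeq2 1.42.0, limma-voom (limma 3.58.1), other filters, the 7 libraries alone, the replicate block, a number-pair term, numbers 3 and 4 alone, a fold threshold, a non-robust spread and each library left out. The fits within number pairs were added after the data were seen.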

Additional observations from a re-analysis of the deposited data

Results flagged for a closer look

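In 8 of the 183 sets of H1.4 CFT values examined (177 genes and 6 library measures), 1 library stood apart from the other 3, with a gap to its nearest neighbour, as a share of the group's whole range, above Dixon's 95% critical value for 4 samples. Chance flags about 1 in 20 such sets. CFT 4 stood apart for Macroh2a2 (60.9 CPM against 59.4 to 59.5, gap 0.937), Calb1 (57.1 against 52.4 to 53.2, gap 0.837), Edem1 (37.0 against 45.5 to 45.9, gap 0.958) and Tek (4.61 against 3.01 to 3.26, gap 0.84). CFT 2 stood apart for Ntsr2 (9.46 CPM against 10.89 to 10.96, gap 0.953) and Myh11 (6.98 against 8.18 to 8.35, gap 0.875). CFT 1 stood apart for Snai1 (3.46 CPM against 1.58 to 1.87, gap 0.842) and for the share of counts taken by the 10 most abundant genes (4.02% against 3.99%, gap 0.865). Without CFT 1, Snai1 remained called, but within numbers 3 and 4 it was not (adjusted p = 0.133).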

How the results depend on the processing

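All 5098 called genes kept their sign with RLE scaling (2278 higher, 2791 lower), DESeq2 (2136 and 2771), limma-voom (2183 and 2803), a non-robust spread (2279 and 2823), a number-pair term (2900 and 3380) and the replicate block (2509 and 3088). With the replicate number as a block, Zeb2 and Cldn1 were the only named genes to lose the call, and among lists the count of glycolysis genes lower went from 3 to 7, of cell cycle genes higher from 6 to 10 and of polycomb genes higher from 3 to 6. Leaving out 1 library gave 1662 to 2257 genes higher, 2304 to 2906 lower, 323 to 409 at least 2-fold higher and 183 to 300 at least 2-fold lower. Testing against a log2 change of 0.25 left 630 higher and 872 lower. A filter of 5 CPM in 3 libraries, which removes low genes by construction, left 52 at least 2-fold higher and 124 lower. Numbers 3 and 4 alone gave 426 at least 2-fold lower. Within numbers 1 and 2, 1270 genes were higher, 210 at least 2-fold higher and 138 at least 2-fold lower, and within numbers 3 and 4, 441 were at least 2-fold lower; the cause was not tested. Without thinning, 23609 ± 133 genes were detected in H1.4 CFT and 22346 ± 314 in GFP. No named gene changed sign in any setting. Precision is limited by the 3 GFP libraries and, for genes under 1 CPM, by counts.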

Other observations

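Some genes below the low-count filter were seen in H1.4 CFT or in GFP but not in both. With libraries thinned to 12070941 counts, 110 genes had 0 counts in all 3 GFP libraries and at least 1 in all 4 H1.4 CFT libraries, and 29 had the reverse. With CFT 2 to 4 only, so that the groups are of equal size, the numbers were 188 and 55. None of these genes was tested. Prr35, a zinc finger gene, had 3, 4, 10 and 18 thinned counts in CFT 1 to 4 and 0 in each GFP and WT H1.4 library. Rcvrn, which encodes the photoreceptor calcium sensor recoverin, had 1, 7, 9 and 4, with 0, 0, 2 and 4 in WT 1 to 4. Gata2, a haematopoietic factor, had 5, 2, 3 and 4, and Lat2 had 1, 5, 5 and 5, each with 1 count in WT 3 and 0 in the other WT H1.4 libraries. Vwde went the other way, with 5, 6 and 3 counts in GFP 2 to 4 and 0 in each H1.4 CFT library, while WT 1 to 4 had 2, 4, 1 and 6. These were picked for their counts.

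Called genes were also set beside their neighbours, over 13253 pairs of adjacent tested genes in the RefSeq order of GRCr8. The neighbour of a gene called higher was itself called higher in 16.5% of cases, against 14.1% for all genes in pairs, and the neighbour of a gene called lower was lower in 19.3%, against 17.0%. The neighbour of a gene called higher was lower in 15.4%. Neither difference was tested. Genes that overlap in RefSeq on GRCr8 were not counted as pairs, but the reads were counted on another build.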
